A study of Homo sapiens with 6 samples.

Results

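The genes described here are SREBF1, ACLY and FADS1, a transcription factor and a pair of enzymes of fatty acid synthesis. Their members are the 14 probe sets that carry these names in the authors' deposited comparison (2 for SREBF1, 8 for ACLY and 4 for FADS1), together with every other probe set in the unbroken run of consecutive identifiers around them. This gives 67 of the 257430 probe sets: 21 in the SREBF1 run, 29 in the ACLY run and 17 in the FADS1 run. One ACLY probe set, 8015469, could not be read with certainty and was left out, so 66 were used. No unlisted probe set carries a gene name in the files, so its place in the run is the only link to the gene.

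SREBF1 encodes the sterol regulatory element binding proteins SREBP-1a and SREBP-1c, which are held in the endoplasmic reticulum membrane as precursors, cut in the Golgi apparatus and then enter the nucleus to activate genes of fatty acid synthesis. ACLY, ATP citrate lyase, splits cytosolic citrate into oxaloacetate and acetyl-CoA, the carbon source of fatty acid and sterol synthesis. FADS1 is a fatty acid desaturase of the endoplasmic reticulum that makes arachidonic acid from dihomo-gamma-linolenic acid. In tumour cells this pathway is known for supplying membrane lipids during growth.

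The study used HCT116, an established human colon carcinoma line. The cells were exposed for 48 h to a lentivirus that carried either a scrambled short hairpin RNA (shscrambled) or an shRNA against the orphan nuclear receptor ERRα (shERRα), and were then kept in puromycin for 48 h. Both groups therefore went through infection, selection and growth in medium with 10% serum. Each group has 3 arrays called biological replicates in the labels. The labels name 1 shERRα treatment, so an effect of ERRα loss and any other effect of that virus cannot be told apart. Nothing says whether the replicates came from separate infections, so the spread between arrays may be partly technical.

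Values are log2 expression, 1 per probe set and array. ESRRA, which encodes ERRα, was lower on every shERRα array at its 2 listed probe sets, with log2 changes of -2.31 and -3.10, both chosen by the authors for this difference. Their median was 5.08 log2 units with shscrambled and 2.38 with shERRα. The 25th percentile of the means of all probe sets was 2.41, so the shERRα level was near background and these changes are not exact. In the run of 6 probe sets that holds them 4 were lower and 2 higher, and the unlisted 4 had a median log2 change of -0.31. The array of shERRα replicate 1 stood apart. Its correlations over all probe sets with the other 5 arrays were 0.867 to 0.877, against 0.933 to 0.947 for the 10 other pairs. Results are therefore also given without it. Names exist only for listed probe sets, so the cell type could be checked only in part: of 7 epithelial and colon markers CDH1 was listed (lower, 7.69 against 5.63 log2 units over 7 probe sets, with 19 of the 20 probe sets of its run lower). Of 4 leukocyte markers ITGAM was listed (higher, 1.64 against 4.23 log2 units), and of 5 fibroblast and endothelial markers COL1A2 was listed lower (2.86 against 0.74 log2 units), COL3A1 higher (3.76 against 4.97 log2 units) and KDR higher (0.69 against 2.49 log2 units). These 4 genes had 1 listed probe set each, and their runs were mixed. In the runs 16 probe sets were higher and 14 lower for ITGAM, and 33 higher and 19 lower for COL1A2. For COL3A1 29 were higher and 23 lower, and for KDR 18 and 14. The unlisted probe sets had median log2 changes of 0.09 (ITGAM), 0.20 (COL1A2), 0.06 (COL3A1) and 0.08 (KDR). The part of these markers in the results below was not tested.

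The promoters of the 3 genes are shown because the genes were listed in the same direction. They are RefSeq windows of build GRCh38.p14, from 250 bases before to 50 bases after an annotated start, printed along the gene. All lie on the minus strand, SREBF1 at chr17:17836937-17837236, ACLY at chr17:41918973-41919272 and FADS1 at chr11:61816954-61817253. The SREBF1 and FADS1 windows are at the outermost start of the gene in the RefSeq table, whereas the ACLY window is at a start inside the gene, and the outermost ACLY start was not searched. Capitals mark matches to GGGCGG (the Sp1 box) or ATTGG (the NF-Y box) on either strand.
SREBF1: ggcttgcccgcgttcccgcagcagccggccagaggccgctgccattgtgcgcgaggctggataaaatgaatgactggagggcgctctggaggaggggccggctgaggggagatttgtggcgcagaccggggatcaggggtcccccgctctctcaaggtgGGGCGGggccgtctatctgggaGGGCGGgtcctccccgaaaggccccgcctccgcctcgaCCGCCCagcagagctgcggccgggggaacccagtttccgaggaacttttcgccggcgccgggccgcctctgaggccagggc
ACLY: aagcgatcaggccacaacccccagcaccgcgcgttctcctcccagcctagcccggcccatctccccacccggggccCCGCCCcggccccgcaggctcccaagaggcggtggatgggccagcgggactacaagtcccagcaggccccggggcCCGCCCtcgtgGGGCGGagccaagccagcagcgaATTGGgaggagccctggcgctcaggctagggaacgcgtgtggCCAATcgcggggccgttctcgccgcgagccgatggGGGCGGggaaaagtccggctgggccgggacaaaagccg
FADS1: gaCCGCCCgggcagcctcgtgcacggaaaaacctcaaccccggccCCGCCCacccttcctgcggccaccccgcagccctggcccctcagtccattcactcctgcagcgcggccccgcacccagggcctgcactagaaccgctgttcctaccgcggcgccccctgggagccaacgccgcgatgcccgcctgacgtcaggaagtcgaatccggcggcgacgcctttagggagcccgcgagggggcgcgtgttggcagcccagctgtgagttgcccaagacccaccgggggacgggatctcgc
The Sp1 box occurred 3 times in the SREBF1 window, 4 times in the ACLY window and 2 times in the FADS1 window, and 45.0% of all 35116 promoter windows held it. The NF-Y box occurred 2 times in the ACLY window and in neither of the others, against 34.6% of all windows. Of the other motifs searched on both strands, none matched any of these windows: TNAAGGTCA, the extended half-site bound by ERR receptors (0.951% of all windows), its core AAGGTCA, which lies within it (3.92%), TCACNCCAC, a form of the sterol regulatory element (1.13%), and the E-box CACGTG (7.26%). A further ACLY window in the table, shifted by 71 bases and overlapping the one shown, gave the same counts. A missing match says only that these letters are not in these windows.

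All 14 named probe sets were lower in shERRα, with no overlap between the groups. Over all probe sets 8.37% had every shERRα array under every shscrambled array, and 5.69% the reverse. The 14 carry their names because the authors' table holds what differed by 2-fold or more with an unadjusted p below 0.01 on these same arrays. Their differences are therefore a description, with no test. By that rule 0.557% of the 256161 probe sets used were listed lower and 0.271% higher. Over all probe sets limma called 0 at an adjusted p under 0.05, with 18539 at an unadjusted p under 0.05, and an equal-variance test with the same adjustment also called 0, with 18564 unadjusted.

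SREBF1, the transcription factor, was listed by 2 probe sets. Probe set 8013146 read 4.13, 4.47 and 4.53 log2 units on the 3 shscrambled arrays and 1.96, 2.83 and 2.77 on the 3 shERRα arrays, a log2 change of -1.85 (SE 0.31). The shERRα values lay near the 25th percentile of probe set means, 2.41, so that this fold is not exact. Probe set 8013149 read 6.15, 6.28 and 6.41 log2 units with shscrambled and 5.39, 4.73 and 5.11 with shERRα, a log2 change of -1.20 (SE 0.20). The lowest array differed between both: shERRα replicate 1 for the first and replicate 2 for the second. The median over both was 5.33 ± 0.17 log2 units (SD, n = 3) with shscrambled and 3.80 ± 0.13 (SD, n = 3) with shERRα, 2.88-fold lower, and 2.76-fold lower without shERRα replicate 1. With 2 probe sets this median is their mean, so it takes on the inexact fold of 8013146.

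ACLY, the citrate-splitting enzyme, was listed by 8 probe sets with log2 changes from -1.65 to -1.02. Probe set 8015461 read 9.19, 8.96 and 9.30 log2 units with shscrambled and 8.13, 8.09 and 8.11 with shERRα, a log2 change of -1.04 (SE 0.10). Probe set 8015481 read 9.24, 9.05 and 9.33 log2 units with shscrambled and 8.11, 8.12 and 8.25 with shERRα, a log2 change of -1.05 (SE 0.09). In both, the shERRα arrays lay closer together than the shscrambled arrays. Probe set 8015470 read 9.20, 9.34 and 9.25 log2 units with shscrambled and 6.91, 8.03 and 7.89 with shERRα, a log2 change of -1.65 (SE 0.35). Here shERRα replicate 1 was the low array, and the change without it was -1.31. Probe set 8015468 read 5.26, 5.61 and 5.19 log2 units with shscrambled and 3.48, 4.37 and 3.54 with shERRα, a log2 change of -1.56 (SE 0.31). On this probe set shERRα replicate 2 was the higher of the 3. The remaining listed probe sets, 8015467, 8015473, 8015475 and 8015477, had log2 changes of -1.02, -1.17, -1.12 and -1.44.

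FADS1, the desaturase, was listed by 4 probe sets with log2 changes from -1.69 to -1.18. Probe set 7948624 read 8.39, 8.37 and 8.45 log2 units with shscrambled and 7.27, 7.13 and 6.57 with shERRα, a log2 change of -1.41 (SE 0.21). Probe set 7948621 read 8.55, 8.22 and 8.73 log2 units with shscrambled and 7.29, 7.003 and 6.60 with shERRα, a log2 change of -1.54 (SE 0.25). On both, shERRα replicate 3 was lowest. Probe set 7948622 read 6.74, 6.84 and 7.46 log2 units with shscrambled and 5.84, 5.98 and 5.68 with shERRα, a log2 change of -1.18 (SE 0.24). Probe set 7948615 read 6.62, 6.01 and 7.05 log2 units with shscrambled and 4.57, 4.89 and 5.14 with shERRα, a log2 change of -1.69 (SE 0.34). On these, the shscrambled arrays spread wider than the shERRα arrays. The plot of the listed probe sets by array shows the 14 probe sets together.

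**Figure D1:**
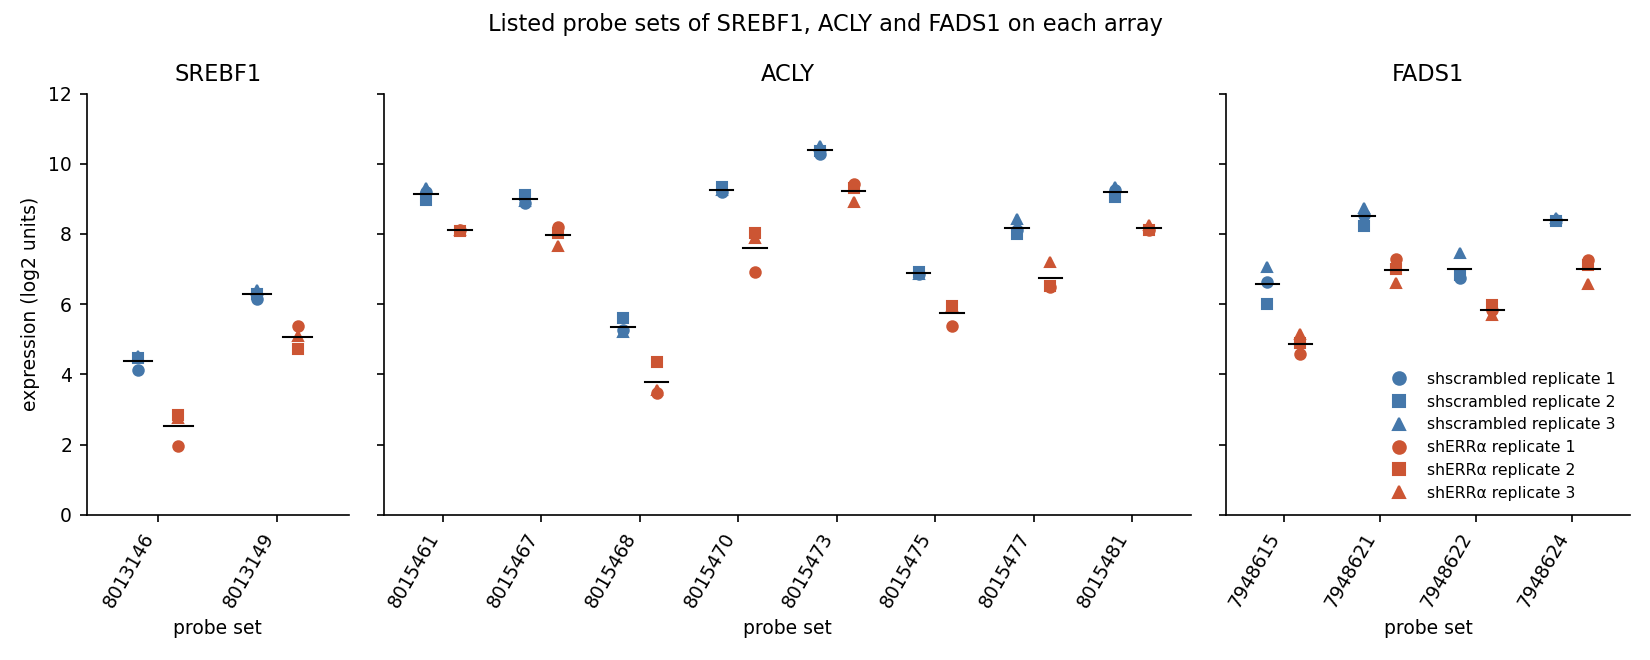
Expression (log2 units) of the 14 listed probe sets (horizontal axis) on each array, in 3 panels by gene; blue points are the 3 shscrambled arrays, orange points the 3 shERRα arrays, and black bars the group means. For every probe set the 3 shERRα points lie under the 3 shscrambled points, by means from -1.85 to -1.02 log2 units.

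The listing stands close to its limits for some probe sets. Just inside were ACLY probe set 8015467, 2.03-fold lower, and ACLY probe set 8015470, with a p of 0.0095. Just outside were ACLY probe set 8015471, 1.99-fold lower, and SREBF1 probe set 8013147, which missed both limits at 1.86-fold lower and a p of 0.0113. With each array left out in turn, the number of the 14 that still met the rule was 3 without shscrambled replicate 1, 4 without replicate 2 and 0 without replicate 3. It was 9 without shERRα replicate 1, 5 without replicate 2 and 7 without replicate 3. The 14 were chosen with all 6 arrays, so some loss is built in. The share of all listed probe sets that still met the rule is not given here, so these counts have no background. With members that newly met the rule included, the counts were 3, 7 and 0 without shscrambled replicates 1, 2 and 3. They were 12, 7 and 8 without shERRα replicates 1, 2 and 3. Counted in this second way, the rule gave 1288 to 2400 over all probe sets with an array left out (1788 without shscrambled replicate 3). With all 6 arrays it gave 2122.

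The 52 unlisted probe sets of the runs show how far the listed ones stand for the whole gene. Of them, 50 were lower and 2 higher, with a median log2 change of -0.85. Over all 256161 probe sets 50.2% were lower and the median log2 change was -0.0029. These 52 come from the same contrast as the listing, so the counts are descriptions. Of the 52, 17 were at least 2-fold lower but missed the limit on p, 10 met the limit on p but not 2-fold, and 25 missed both. Of the 10, 9 were in the ACLY run and 1 in the FADS1 run. The share of all probe sets that met the limit on p alone was not computed, so the 10 have no background here.

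The 3 runs differed in how evenly they were lower. The listed probe sets are separated between the groups through the rule that chose them, so the separated shares are given for the unlisted ones. In the ACLY run all 28 used probe sets were lower, with log2 changes between -2.37 and -0.65, and 17 of the 20 unlisted ones (85.0%) had every shERRα array under every shscrambled array. In the FADS1 run 16 of 17 were lower and 10 of the 13 unlisted ones (76.9%) were separated in that way. In the SREBF1 run 20 of 21 were lower, but 8 of the 19 unlisted ones (42.1%) were separated. Over all probe sets that share was 8.37%, as given above. At least 2-fold lower were 7 of the 20 unlisted ACLY, 9 of the 13 FADS1 and 1 of the 19 SREBF1 probe sets. Over all probe sets 6.84% were, so the SREBF1 share was no higher than that. The median log2 change over all used probe sets was -1.51 in the FADS1 run, -1.03 in the ACLY run and -0.57 in the SREBF1 run.

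**Figure D2:**
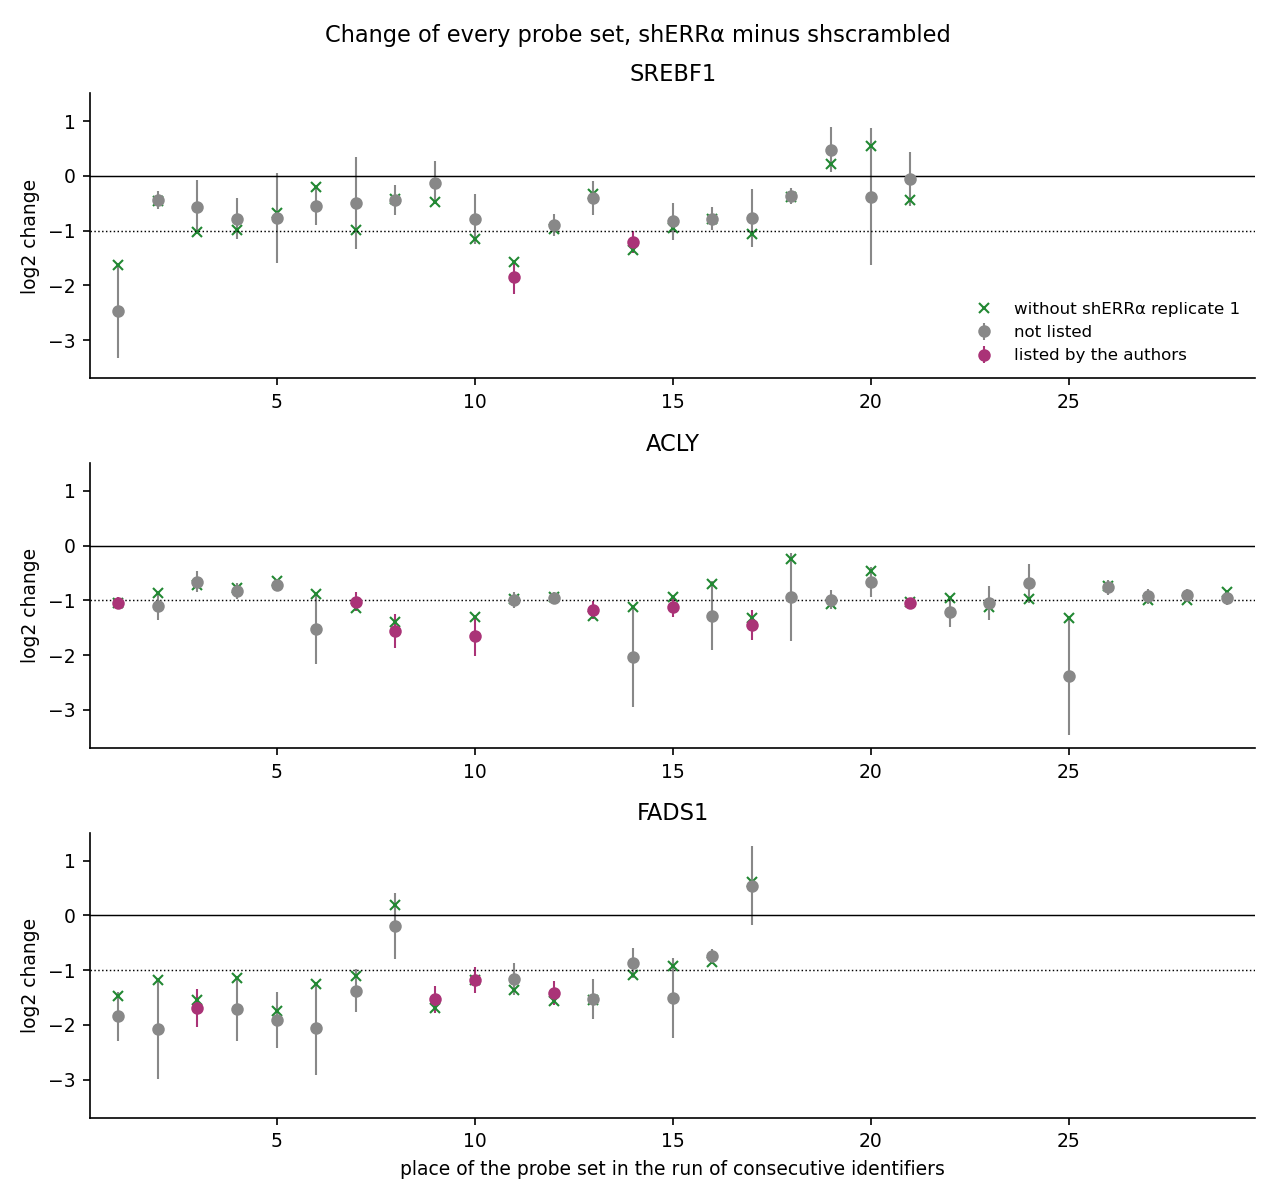
Log2 change (shERRα mean minus shscrambled mean) of each used probe set against its place in the run, with 1 panel per gene; bars are standard errors (n = 3 against 3), purple points are listed probe sets, grey points unlisted ones, and green crosses the change without shERRα replicate 1. The ACLY points lie in a band around the dotted 2-fold line, most FADS1 points lie under it, and most SREBF1 points lie between it and 0.

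Within the SREBF1 run the 19 unlisted probe sets had a median log2 change of -0.54. The lowest was 8013136, the first of the run, which read 7.42, 7.64 and 7.83 log2 units with shscrambled and 3.48, 6.20 and 5.82 with shERRα. Its log2 change of -2.46 (SE 0.86) was -1.62 without shERRα replicate 1. Probe set 8013147 read 7.39, 7.84 and 7.80 log2 units with shscrambled and 6.93, 6.91 and 6.504 with shERRα, a log2 change of -0.90 (SE 0.20). These probe sets were lower on all 3 shERRα arrays. Probe sets 8013154 (0.48, SE 0.41), 8013155 (-0.37, SE 1.25) and 8013156 (-0.06, SE 0.49), the last of the run, had overlapping groups. Their log2 changes were smaller than or close to their standard errors. Overlap was not limited to the end: it occurred at 11 of the 21 probe sets of the run. Inside the run 8013140 (-0.77, SE 0.82), 8013142 (-0.49, SE 0.84) and 8013144 (-0.13, SE 0.39) also changed by less than their standard errors.

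Within the ACLY run the 20 unlisted probe sets had a median log2 change of -0.95, close to the limit of 2-fold. Probe set 8015472 read 10.89, 10.88 and 11.15 log2 units with shscrambled and 10.00, 9.96 and 10.11 with shERRα, a log2 change of -0.95 (SE 0.10). Probe set 8015488 read 11.17, 11.09 and 11.32 log2 units with shscrambled and 10.48, 10.17 and 10.24 with shERRα, a log2 change of -0.90 (SE 0.12). Both differ from the listed ones in the 2-fold limit, not in the separation of the groups. The largest changes of the run, -2.37 at 8015485 and -2.03 at 8015474, rested partly on shERRα replicate 1, which read 3.73 and 3.95 log2 units against 6.49 and 6.59 on replicate 2. Without that array they were -1.33 and -1.12.

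Within the FADS1 run the 13 unlisted probe sets had a median log2 change of -1.51, and 9 of them were at least 2-fold lower without meeting the limit on p. Probe set 7948614 read 8.80, 8.94 and 9.17 log2 units with shscrambled and 5.10, 7.88 and 7.69 with shERRα, a log2 change of -2.08 (SE 0.90) and of -1.19 without shERRα replicate 1. Probe set 7948618 read 7.55, 7.60 and 7.71 log2 units with shscrambled and 3.95, 6.81 and 5.93 with shERRα, a log2 change of -2.06 (SE 0.85) and of -1.25 without that array. On both the groups did not overlap, and shERRα replicate 1 was far under the others. Probe sets 7948620 (-0.19, SE 0.60) and 7948629 (0.54, SE 0.73) departed from the rest of the run: each read between 3.23 and 6.85 log2 units with overlapping groups.

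The array that stood apart was not the lowest everywhere. Listed probe sets were chosen as lower in shERRα, so these counts are given for the 52 unlisted ones. Among them shERRα replicate 1 was the lowest of the 6 arrays for 22, replicate 2 for 12 and replicate 3 for 15. Over all probe sets replicate 1 was lowest for 25.2%, and the shares of replicates 2 and 3 are not given here. By gene, replicate 1 was lowest for 12 of 20 unlisted ACLY, 7 of 13 FADS1 and 3 of 19 SREBF1 probe sets. Without it 48 of the 52 unlisted probe sets were lower (51.2% over all probe sets). Its effect differed by gene: without it the median log2 change went from -1.51 to -1.19 in the FADS1 run, from -1.03 to -0.97 in the ACLY run and from -0.57 to -0.78 in the SREBF1 run. Listed probe sets are 2-fold lower through the rule, so this count is given for the unlisted ones. Those at least 2-fold lower went from 7 to 4 of 20 in the ACLY run and from 1 to 4 of 19 in the SREBF1 run. In the FADS1 run they stayed at 9 of 13. The share of all probe sets at least 2-fold lower was not computed without that array.

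Low values of these members share a feature of the table: many probe sets hold exactly the same number on an array. Of the 396 member values, 24 were held by at least 1000 probe sets of the same array, 10 of them on shERRα replicate 1. The value 3.48 of that array stood at SREBF1 probe sets 8013136 and 8013140 and at ACLY probe set 8015468, and was held by 3124 probe sets. Listed SREBF1 probe set 8013146 held such shared values on all 3 shERRα arrays (5150, 2562 and 1065 probe sets). Differences at these low values are therefore coarse.

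A median per array over the whole run gives each gene 1 level, whose change differs from the median of the probe set changes given above. For ACLY the median over the run was 9.22, 9.07 and 9.27 log2 units with shscrambled and 8.16, 8.11 and 8.18 with shERRα, 2.06-fold lower and 2.07-fold without shERRα replicate 1. For FADS1 it was 6.74, 6.26 and 7.05 log2 units with shscrambled and 5.10, 5.98 and 5.48 with shERRα, 2.24-fold lower and 1.94-fold without that array. In both genes the groups did not overlap, and in ACLY the shERRα arrays had a SD of 0.04 log2 units. For SREBF1 it was 6.04, 6.20 and 5.96 log2 units with shscrambled and 5.98, 5.44 and 5.42 with shERRα, 1.37-fold lower and 1.55-fold without that array. Here shERRα replicate 1 lay between the shscrambled arrays.

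Over the unlisted probe sets alone SREBF1 again had the smallest change, while ACLY and FADS1 differed by less than their standard errors. The log2 change of their median was -1.01 (SE 0.08) for ACLY, -1.02 (SE 0.21) for FADS1 and -0.14 (SE 0.23) for SREBF1, the last of them -0.36 without shERRα replicate 1. For SREBF1 that array, at 6.35 log2 units, was the highest of the 6. The larger difference of SREBF1, inexact as given above, was thus in the median of its 2 listed probe sets, not of its run. Of the 19 unlisted SREBF1 probe sets 1 was at least 2-fold lower, against 6.84% of all probe sets. It was 8013136, the lowest of the run, at -2.46, and at -1.62 without shERRα replicate 1. The median of the unlisted SREBF1 probe set changes was -0.54, so the -0.14 depends on the summary used. The whole-run medians, which include the listed probe sets chosen on this contrast, were also set against other runs. The 19182 runs of at least 3 probe sets had a median change of -0.0018 log2 units. Of them, 1.29% lay under the ACLY run, 0.792% under the FADS1 run and 12.8% under the SREBF1 run, given as a description. Without its listed probe sets the SREBF1 run, at -0.14, lay above the 25th percentile of run changes, -0.25.

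**Figure D3:**
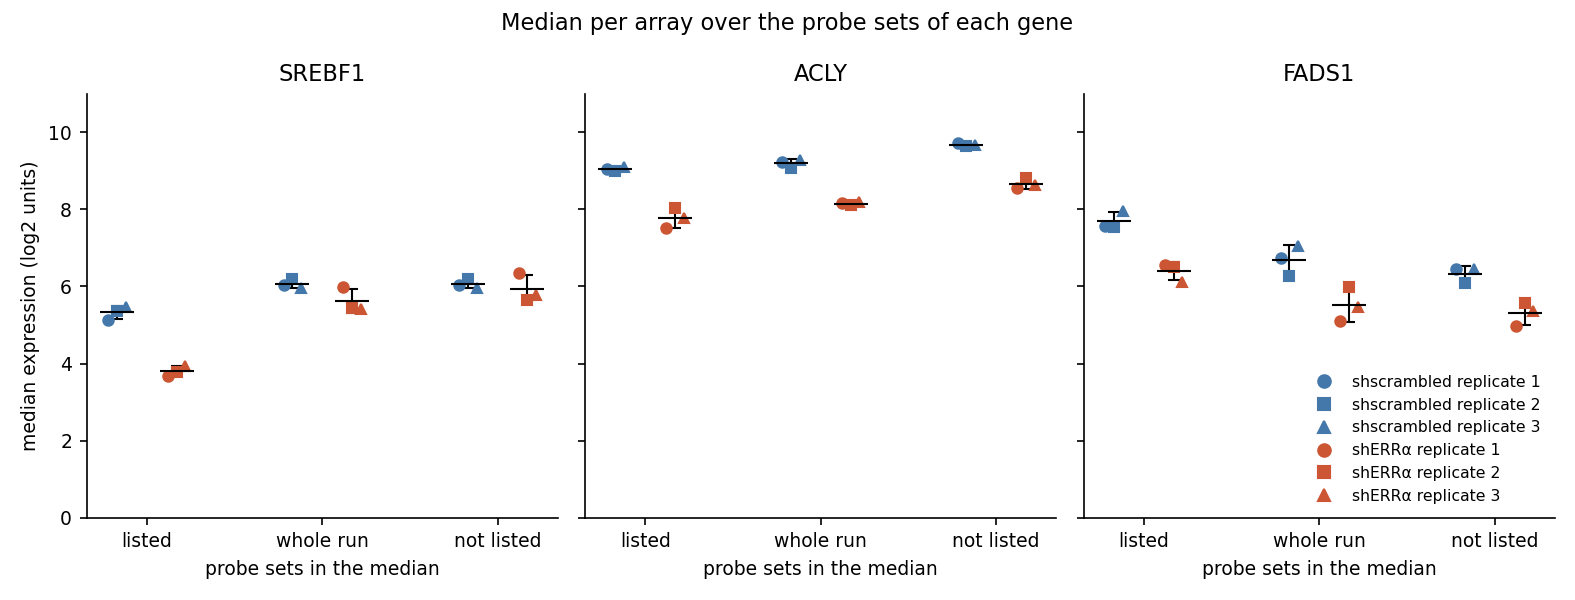
Median expression per array (log2 units) over the listed probe sets, the whole run and the unlisted probe sets of each gene; blue points are shscrambled arrays, orange points shERRα arrays, and black bars with whiskers the group mean ± SD (n = 3). The groups are apart in all 3 summaries of ACLY and FADS1, and for SREBF1 in the listed probe sets but not in the run.

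**Figure D4:**
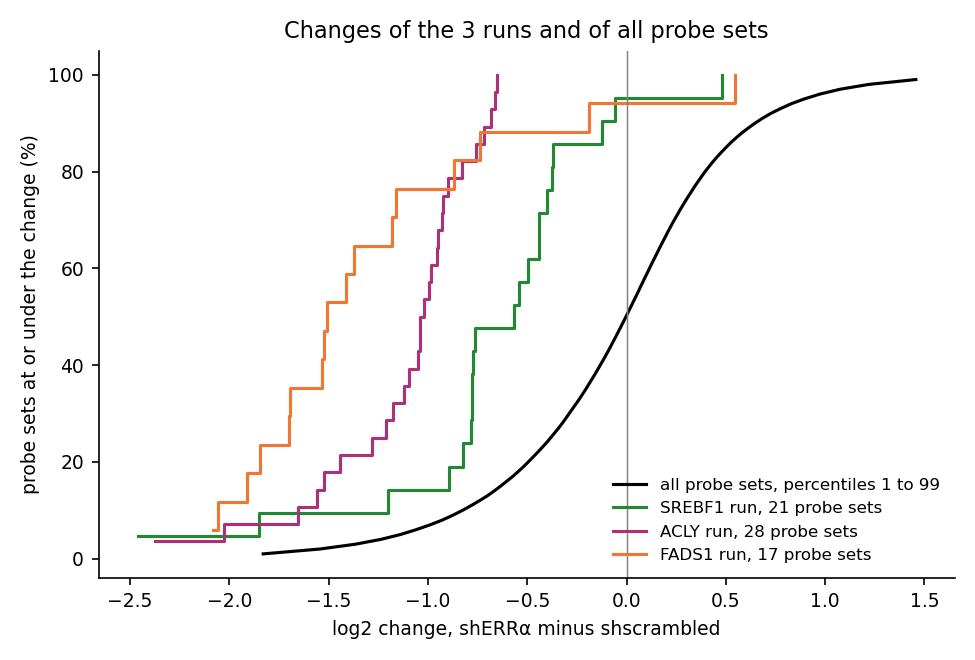
Share of probe sets (%) at or under each log2 change, for the runs of SREBF1 (21 probe sets), ACLY (28) and FADS1 (17) and, as a black line, for percentiles 1 to 99 of all probe sets. The medians lie at -0.57, -1.03 and -1.51 for the runs and near 0 for all probe sets.

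Other genes of lipid synthesis were looked up in 6 lists that together hold 72 genes. Since only listed probe sets carry names, a gene without a listing has no value here, and the share of all genes that were listed is not known. Of the 72, 8 were listed: 6 lower and 2 higher. The 6 include SREBF1, ACLY and FADS1, which were chosen from the listed genes, so their part in these counts was fixed beforehand. The others were SREBF2, MID1IP1 and PPARGC1B, listed lower, and GPAM and GPAT3, listed higher. Of the 11 genes of the SREBP system 2 were listed lower, SREBF1 and SREBF2, and of the 10 genes of cytosolic acetyl-CoA and fatty acid synthesis 1, ACLY. Of the 8 desaturation genes 1 was listed lower, FADS1, and of the 12 elongation genes 0. Of the 11 regulators 2 were listed lower, and of the 20 genes of glycerolipid and phospholipid synthesis 2 were listed higher.

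SREBF2, which encodes the SREBP mainly known for sterol synthesis, had 6 listed probe sets with a median of 7.73 ± 0.26 log2 units (SD, n = 3) against 6.28 ± 0.16 (SD, n = 3). All 21 probe sets of its run were lower and the log2 change of the run median was -1.08, against -0.45 for SREBF1. That difference between the paralogs was not tested. MID1IP1, whose product promotes polymerisation of acetyl-CoA carboxylase, was listed lower at 1 probe set with 5.95, 6.30 and 5.85 log2 units against 4.68, 5.29 and 4.75, and its run changed by -0.43. PPARGC1B, a coactivator of ERRα and, in mice, of SREBP-1, was listed lower at 1 probe set with 5.64, 5.64 and 4.98 log2 units against 4.13, 4.37 and 4.13, and its run changed by -0.37. For both, the groups did not overlap at the listed probe set, which was picked for its difference. Over all probe sets 8.37% were separated in this direction. In the runs 5 of 5 probe sets were lower for MID1IP1, and 10 were lower and 4 higher for PPARGC1B. The unlisted probe sets had median log2 changes of -0.47 (MID1IP1) and -0.21 (PPARGC1B).

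The genes listed higher act at the entry of glycerolipid synthesis, where an acyl group is joined to glycerol-3-phosphate. GPAM, the enzyme of the outer mitochondrial membrane, read 2.96, 2.97 and 3.66 log2 units with shscrambled and 4.86, 5.08 and 5.34 with shERRα as the median of 2 probe sets. The log2 change of its run was 0.58, with 18 of 22 probe sets higher. GPAT3, an enzyme of the endoplasmic reticulum, read 7.80, 8.01 and 8.16 log2 units with shscrambled and 9.34, 9.37 and 9.22 with shERRα as the median of 3 probe sets. The log2 change of its run was 0.95, with 12 of 13 probe sets higher. Like the others, both were listed for their difference on these arrays.

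**Figure D5:**
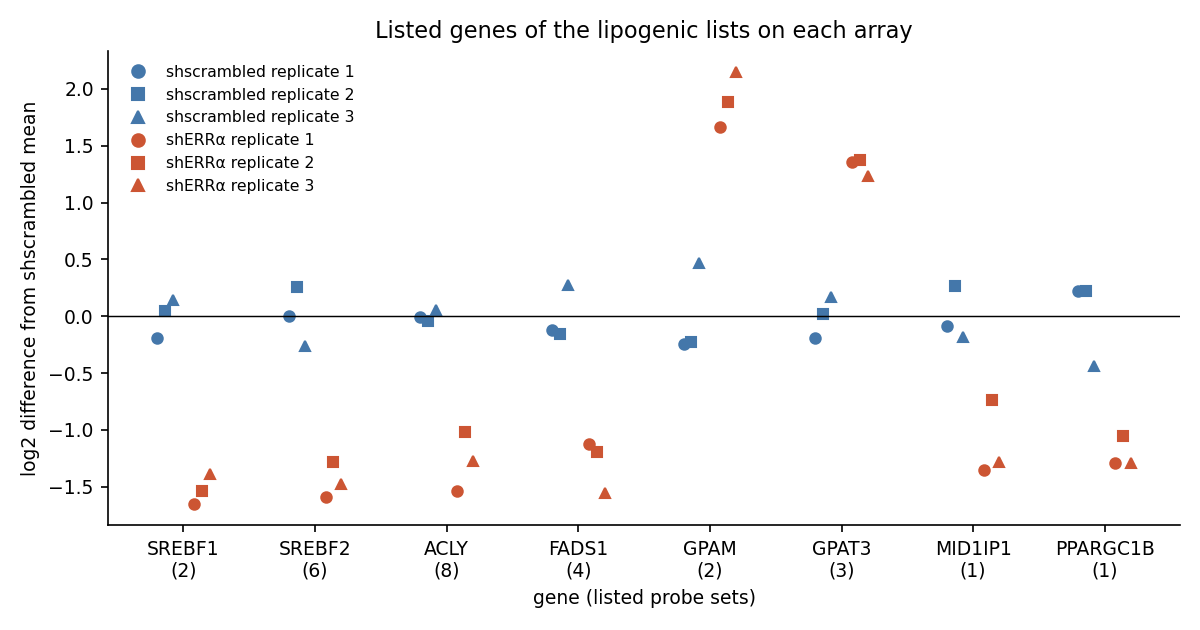
Log2 difference from the gene's shscrambled mean on each array, for the 8 listed genes of the lipid synthesis lists (median over the listed probe sets, their number in brackets); blue points are shscrambled arrays and orange points shERRα arrays. GPAM and GPAT3 lie above 0 on the 3 shERRα arrays and the other 6 genes below it.

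Across the 6 arrays the profiles of the members were set beside those of other genes listed lower with at least 3 distinct listed probe sets. Likeness was the root mean square difference between profiles, each centred on its own mean. Nearest to SREBF1, of 88 genes, were MYO5C (0.13 log2 units), NOTCH2 (0.13) and ADGRV1 (0.13). Nearest to ACLY, of 87 genes, were SERPINB9 (0.04 log2 units), PDIA5 (0.08) and CPT1A (0.09). Nearest to FADS1, of 87 genes, were GOT1 (0.09 log2 units), TSPAN3 (0.16) and FAM169A (0.16). Between the members the differences were 0.21 for SREBF1 and ACLY, 0.24 for ACLY and FADS1 and 0.26 for SREBF1 and FADS1. The nearest genes were picked as the smallest of 87 or 88, so larger values between the members do not show that they are unlike. With 2 listed probe sets SREBF1 was not itself among the genes searched. All of these genes were listed on the same contrast, which fixes most of such likeness.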

How the data were processed

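Expression was measured on Affymetrix whole-transcript arrays in 6 samples, 3 with shscrambled and 3 with shERRα, grouped by their titles. Per the submitters' processing notes the authors made the deposited values with RMA, in log2 units; for its version, annotation and genome build nothing is given in the sources used here. This table has lost its decimal marks, so its cells are another kind of number, digits alone. The mark was put after the second digit where a cell had 7 of them and after the first elsewhere. Of all values 5.86% could be read either way and took the reading nearer to the probe set's other values; 1269 probe sets, for which both readings lay within 4 log2 units of equal distance, were left out, and 12 more such were settled by the fold change in the authors' deposited table. The restored values gave all 2122 fold changes (ratios) of the authors' deposited table within 0.001 log2 units and all 2122 of its deposited p-values within 1%. The digits of ACLY probe set 8015469 on shERRα replicate 1 read as 1.05 or 10.5; 5381 decided probe sets of that array hold the same digits, of which 5368 were read low.

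Levels of a gene are medians over probe sets per array, changes are shERRα minus shscrambled, and SE and SD are over arrays. limma 3.58.1 (R 4.3.3) with Benjamini-Hochberg adjustment and an equal-variance test from the same linear fits ran over all probe sets. The fit was tested on simulated data with noise smaller than the spread of the shscrambled arrays and equal for all probe sets. That test checks the computation and does not show what the fit can find on these arrays. The number of arrays limits the precision. The members and gene lists were chosen with earlier results of these data known. Named genes are ESRRA, the members, the listed members of the lists, and the 3 nearest profiles per member; symbols were updated through RefSeq (GRCh38.p14). Arrays left out in turn, the replicate number as a block, array weights, other scalings and other summaries were tried.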

Additional observations from a re-analysis of the deposited data

How the results depend on the processing

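All 83 values of the 3 genes under the alternatives stayed lower. Of these, 14 could not move by construction: 6 with the block, which cannot change a balanced difference of means, 6 with the filter on dim probe sets, which left none out, and both other summaries of the SREBF1 pair. Of the other 69, 67 moved by less than 1 SD between arrays; since the genes were listed for this direction, that is no sign of stability. The exceptions were the SREBF1 run at -0.14 log2 units without its listed probe sets (-0.45 with them), a summary added after the data were seen, and the ACLY run at -1.13 by the mean over probe sets (-1.04 by the median). Leaving out each array gave -0.64 to -0.36 for the SREBF1 run, -1.10 to -1.002 for the ACLY run and -1.40 to -0.96 for the FADS1 run. With the undecided probe set, also added later, the ACLY run was at -1.05 under either reading. The rule of the deposited table gave 2122 probe sets in all, 1288 to 2400 with each array left out, and 1067 with a replicate block. The samples share only a number: deviations of same-numbered arrays correlated at 0.068, 0.048 and 0.084, and each array correlated best with its own number, a hint from the data and not the design. No alternative gave a probe set past the adjusted threshold in limma (0 in each); the equal-variance test with the same adjustment called 1 without shERRα replicate 1 and 2 without replicate 3. The cause of these shifts was not tested. Near-background signal limits SREBF1 probe set 8013146 in particular.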
